A study of Mus musculus with 12 samples.

Results

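The granzymes and natural killer (NK) cell genes described here are Gzma, Gzmb, Prf1, Nkg7, Klrd1, Klrk1, Ncr1, Eomes, Il2rb and Ccl5. Every probe set annotated with exactly 1 of these 10 symbols was taken, which gave 13 of the 45101 probe sets of the array. All 10 genes passed the filter on low signals and so belonged to the 17569 genes tested. For Prf1, Eomes and Il2rb, which had more than 1 probe set, the one with the highest mean signal stood for the gene.

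NK cells are innate lymphocytes that kill stressed, infected or transformed cells, and cytotoxic T cells use the same killing machinery. Both store perforin and granzymes in secretory granules, and on contact with a target perforin lets the granzymes enter it. NK cells decide between attack and restraint by adding up signals from activating and inhibitory surface receptors, many of them of the lectin-like Klr family, and they depend on IL-15, which signals through the receptor chain Il2rb. The lung holds many circulating NK cells. NF-κB1 is made as a precursor, p105, and processed to p50, a DNA-binding subunit that acts in heterodimers with RelA and also in homodimers.

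Gene expression was measured in the left lungs of male mice of 6 to 8 weeks, 1 mouse per Affymetrix Mouse Genome 430 2.0 array, in 4 groups of 3. Nfkb1KO-O3 and Nfkb1KO-Air were Nfkb1-deficient mice (B6;129P-Nfkb1tm1Bal/J, which lack p50 and p105 in every cell) kept for 48 h in 0.3 ppm O3 or in filtered air. WT-O3 and WT-Air were wild-type B6129PF2/J mice kept under the same conditions, and filtered air was given in a chamber of its own. Both strains are of mixed B6 and 129 background and were purchased as separate stocks, so the effects of Nfkb1 and of other differences between the stocks cannot be told apart. Nor can those of O3 and of the chamber.

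Values are log2 signals after quantile normalisation, and a difference of 1 is a 2-fold change. A difference was called where limma's p-value was under 0.05 after Benjamini-Hochberg adjustment, in which all 17569 genes took part. The 20th percentile of the signals, 4.37 on the log2 scale, was taken as the lower limit of measurement. Where any value of the dimmer group lay under it, the fold change is given as "at least". Signals of different genes come from different probes and were not compared with each other. In whole lung, fewer cells of a type and less RNA per cell cannot be told apart.

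The 11 markers of lung epithelium were all measured, with summed signals of 148000 to 176000 over the 12 arrays. No probe set carried the single symbol Nfkb1, so the genotype was not checked on that gene. Median deposited signals were 99.14 to 121.2 on 11 arrays and 180.1 on Nfkb1KO-Air replicate 1, whose rank correlations with the other arrays were 0.915 to 0.930. WT-Air replicate 3 also stood apart, with summed signals of 38590 for skeletal muscle genes and 18630 for B cell genes, against at most 9419 and 6560 on any other array. Hybridisation controls averaged 11.43 ± 0.05 in O3 arrays and 11.66 ± 0.09 in air arrays on the log2 scale, and poly-A controls 8.38 ± 0.25 in O3 arrays and 8.84 ± 0.16 in air arrays (SD, n = 6 each). The 3'/5' signal ratio of Gapdh was 0.682 to 0.774 in O3 arrays and 0.781 to 0.934 in air arrays. The part of these technical differences in the O3 comparisons was not tested.

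The promoter sequences of Gzma, Gzmb and Nkg7 are shown because these 3 genes had the smallest p-values of the set between genotypes after O3. They are the 250 bases before the start of each gene, read 5′ to 3′ on the gene's strand from RefSeq (GRCm38.p6). Promoters of 7 of the 10 genes were matched (8 windows, as Ncr1 has 2 start sites), and Klrd1, Il2rb and Ccl5 were not matched. Capitals mark the motifs found on either strand.
Gzma (chr13:113100982-113101231, minus strand): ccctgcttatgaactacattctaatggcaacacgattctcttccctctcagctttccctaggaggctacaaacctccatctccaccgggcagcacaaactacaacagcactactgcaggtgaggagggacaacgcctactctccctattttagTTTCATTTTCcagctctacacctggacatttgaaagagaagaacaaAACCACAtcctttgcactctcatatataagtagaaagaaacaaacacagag
Gzmb (chr14:56262335-56262584, minus strand): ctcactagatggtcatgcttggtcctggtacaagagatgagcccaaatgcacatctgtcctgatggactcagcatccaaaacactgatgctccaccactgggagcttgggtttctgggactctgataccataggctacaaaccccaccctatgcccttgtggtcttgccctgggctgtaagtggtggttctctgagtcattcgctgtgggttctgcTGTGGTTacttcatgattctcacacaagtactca
Nkg7 (chr7:43436888-43437137, plus strand): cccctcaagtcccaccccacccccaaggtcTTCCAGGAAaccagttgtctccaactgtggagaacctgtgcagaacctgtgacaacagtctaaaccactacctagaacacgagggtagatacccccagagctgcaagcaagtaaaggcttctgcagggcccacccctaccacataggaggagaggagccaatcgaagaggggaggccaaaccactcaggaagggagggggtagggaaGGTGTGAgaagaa

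A total of 5 motifs was searched on both strands. The RUNX site TGTGGTT, bound by Runx3 and its relatives, lay in the promoters of 4 of the 7 matched genes (Gzma, Gzmb, Klrk1 and Ncr1), against 4.4% of 32851 promoters of the same length. In Gzma it was on the opposite strand, 51 to 45 bases before the start, and in Gzmb it was 34 to 28 bases before the start. The core of the interferon-stimulated response element, GAAA repeated after a gap of 2 bases, lay in 2 of the 7, Gzma (97 to 88 bases before the start) and Eomes, against 2.98% of all promoters. Nkg7 held 1 STAT site, TTCNNNGAA, which reads the same on both strands (220 to 212 bases before the start, 7.02% of all promoters). It also held the T-box half-site GGTGTGA, the kind of site bound by Eomes and Tbx21 (13 to 7 bases before the start, 3.33% of all promoters). The consensus κB site was in 0 of the 7 windows, against 5.0% of all promoters. A match is a description of the letters, and its absence from 250 bases says nothing about the binding of a factor.

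Across the 4 groups the set had 1 leading pattern. Mean signals of all 10 genes were above WT-O3 in the Nfkb1KO-O3 lungs on the probe sets that stood for them. Of all genes, 50.5% had a positive difference. On these probe sets the 3 Nfkb1KO-O3 arrays lay above the 3 WT-O3 arrays in 10 of 10, against 9.31% of all genes. On the second probe sets of Prf1 and Il2rb these groups overlapped, with differences of -0.02 and 0.69. The difference was called for 8 of 10 genes, against 0.552% of all genes called higher in that comparison. The 10 genes were chosen with earlier results of these data known, so the shares are a description and not a test. The median difference was 1.81 for the set and 0.00 for all genes. In air the median difference between genotypes was 0.99, and Gzma and Gzmb were called, against 0.256% of all genes. With O3, 4 of the 10 genes fell in WT lungs (2.24% of all genes were called lower). In Nfkb1-deficient lungs 0 of 10 were called (3.35% of all genes were called higher and 2.83% lower). The interaction, which compares the O3 differences of the genotypes, was called for 0 of 10 (0.0342% of all genes were called higher).

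**Figure D1:**
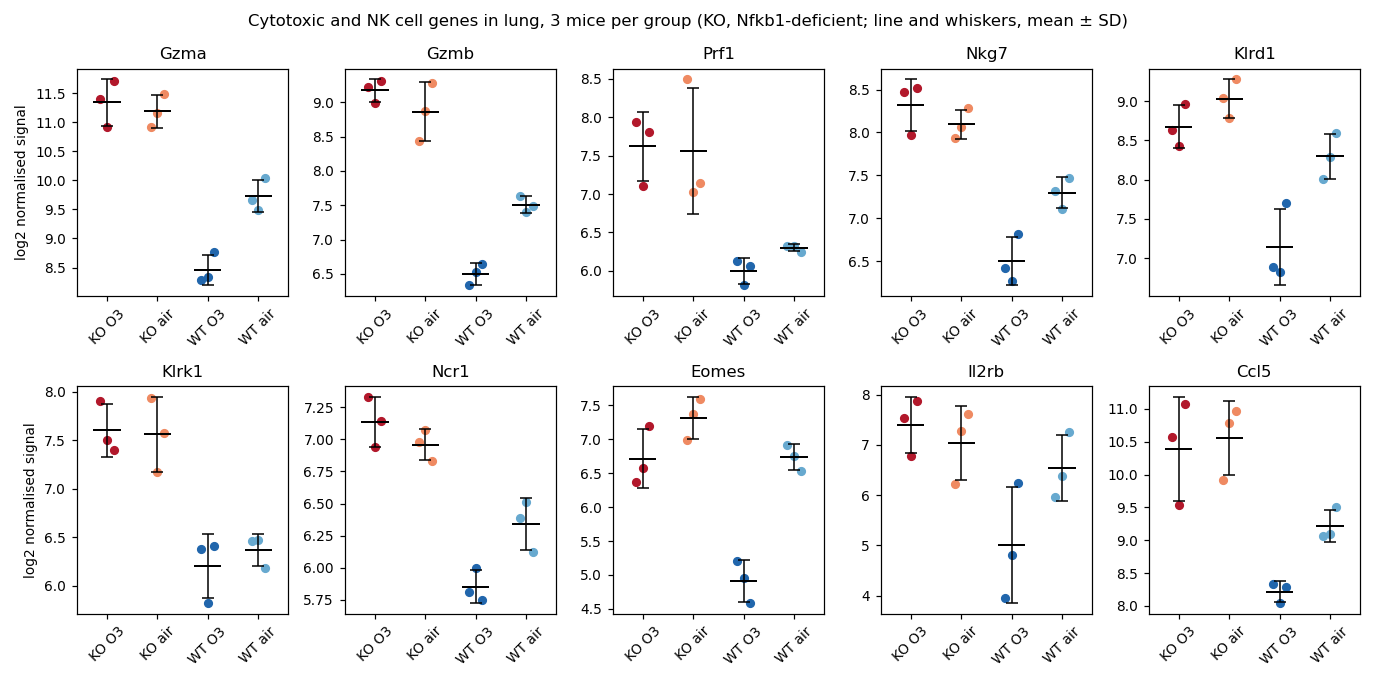
Log2 normalised signal (y axes, each gene on its own scale) of the 10 genes in the 4 groups (x axis; KO, Nfkb1-deficient), with 1 point per array and the mean ± SD (n = 3). Every panel has all 3 Nfkb1KO-O3 points above the 3 WT-O3 points, for example 10.91 to 11.71 against 8.28 to 8.76 for Gzma.

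Gzma encodes granzyme A, a tryptase-like serine protease of cytotoxic granules (probe set 1417898_a_at). Its log2 signals were 11.40, 10.91 and 11.71 in Nfkb1KO-O3 lungs and 8.28, 8.33 and 8.76 in WT-O3 lungs. They were 10.92, 11.16 and 11.48 in Nfkb1KO-Air lungs and 9.66, 9.49 and 10.04 in WT-Air lungs. All 6 Nfkb1-deficient arrays thus lay above all 6 wild-type arrays, and within the wild type the O3 arrays lay below the air arrays. The difference between genotypes was 2.88 ± 0.22 (SE, adjusted p = 2e-05) after O3, a 7.38-fold higher signal, and 1.45 ± 0.22 (adjusted p = 0.015) in air. With O3 the gene fell 2.42-fold in WT lungs (-1.28 ± 0.22, adjusted p = 0.0061), and the difference in Nfkb1-deficient lungs was 0.15 ± 0.22 (adjusted p = 0.74).

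Gzmb encodes granzyme B, the protease that cleaves caspases and their substrates in target cells (1419060_at). It followed the same order. Its signals were 9.23, 8.99 and 9.31 in Nfkb1KO-O3 lungs against 6.33, 6.53 and 6.64 in WT-O3 lungs, and 8.43, 8.88 and 9.29 in Nfkb1KO-Air lungs against 7.64, 7.40 and 7.49 in WT-Air lungs. Again no Nfkb1-deficient array overlapped a wild-type array. The gene was 6.39-fold higher in Nfkb1KO-O3 lungs relative to WT-O3 (2.68 ± 0.21, adjusted p = 2.3e-05) and 2.56-fold higher in Nfkb1KO-Air than in WT-Air lungs (1.36 ± 0.21, adjusted p = 0.017). In WT lungs it fell 2.01-fold with O3 (-1.01 ± 0.21, adjusted p = 0.018), while the difference with O3 in Nfkb1-deficient lungs was 0.31 ± 0.21 (adjusted p = 0.43).

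Nkg7 is a small membrane protein of cytotoxic granules that takes part in their release (1450753_at). It measured 8.47, 7.97 and 8.52 in Nfkb1KO-O3 lungs and 6.42, 6.27 and 6.82 in WT-O3 lungs, and the difference of 1.82 ± 0.22 was called (3.53-fold, adjusted p = 0.0015). In air it measured 7.94, 8.06 and 8.28 in Nfkb1KO-Air lungs and 7.32, 7.11 and 7.47 in WT-Air lungs. Those groups did not overlap, but the difference of 0.79 ± 0.22 was not called (adjusted p = 0.2). The difference with O3 in WT lungs, -0.80 ± 0.22, just missed the threshold (adjusted p = 0.058).

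Prf1 encodes perforin, the pore-forming protein through which granzymes reach the target, and its 2 probe sets disagreed. The one standing for the gene (1451862_a_at, mean 6.87) measured 7.94, 7.11 and 7.81 in Nfkb1KO-O3 lungs against 6.13, 5.81 and 6.06 in WT-O3 lungs. In air it measured 8.50, 7.03 and 7.14 in Nfkb1KO-Air lungs against 6.32, 6.33 and 6.25 in WT-Air lungs. Neither the difference after O3 (1.62 ± 0.37, adjusted p = 0.077) nor that in air (1.26 ± 0.37, adjusted p = 0.21) was called, although the groups did not overlap in either. The other probe set (1450335_at, mean 6.85) lay between 6.43 and 7.17 on all 12 arrays. Its differences were -0.02 ± 0.23 after O3 and -0.07 ± 0.23 in air. Which of them stood for the gene turned on a narrow margin in mean signal.

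The 3 surface receptors were called between genotypes after O3 and not in air. Klrd1 encodes CD94, which pairs with NKG2 chains to read a non-classical MHC class I molecule (1460245_at). Its signals were 8.63, 8.43 and 8.97 in Nfkb1KO-O3 lungs against 6.89, 6.83 and 7.70 in WT-O3 lungs, and 9.04, 8.78 and 9.28 in Nfkb1KO-Air lungs against 8.01, 8.29 and 8.59 in WT-Air lungs. WT-O3 stood apart as the lowest group, with no overlap with any other. The difference between genotypes was 1.54 ± 0.25 after O3 (2.91-fold, adjusted p = 0.011) and 0.74 ± 0.25 in air (adjusted p = 0.29). Klrd1 fell 2.23-fold with O3 in WT lungs (-1.16 ± 0.25, adjusted p = 0.021).

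Klrk1 encodes NKG2D, an activating receptor for stress-induced ligands on target cells (1450495_a_at). It measured 7.91, 7.50 and 7.40 in Nfkb1KO-O3 lungs against 6.38, 5.82 and 6.41 in WT-O3 lungs, and 7.94, 7.17 and 7.58 in Nfkb1KO-Air lungs against 6.46, 6.47 and 6.18 in WT-Air lungs. The 2 wild-type groups overlapped each other, as did the 2 Nfkb1-deficient groups, and no array of one genotype reached into the other. The difference between genotypes was 1.40 ± 0.27 after O3 (2.64-fold, adjusted p = 0.035) and 1.19 ± 0.27 in air (adjusted p = 0.11). With O3 it was -0.17 ± 0.27 in WT lungs (adjusted p = 0.8).

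Ncr1 encodes NKp46, an activating receptor that in mice marks NK cells and some other innate lymphoid cells (1422089_at). It measured 7.33, 6.94 and 7.14 in Nfkb1KO-O3 lungs against 5.81, 6.0 and 5.75 in WT-O3 lungs, and 6.98, 7.07 and 6.83 in Nfkb1KO-Air lungs against 6.39, 6.51 and 6.12 in WT-Air lungs. It was 2.43-fold higher in Nfkb1KO-O3 lungs relative to WT-O3 (1.28 ± 0.24, adjusted p = 0.031). In air the groups did not overlap but the difference of 0.62 ± 0.24 was not called (adjusted p = 0.36), nor was that of -0.49 ± 0.24 with O3 in WT lungs (adjusted p = 0.3).

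Eomes is a T-box transcription factor of mature NK cells and memory CD8 T cells. On the probe set that stood for it, the groups had a different order (1435172_at). Its signals were 6.37, 6.58 and 7.20 in Nfkb1KO-O3 lungs against 5.20, 4.95 and 4.58 in WT-O3 lungs, and 6.99, 7.37 and 7.60 in Nfkb1KO-Air lungs against 6.92, 6.76 and 6.53 in WT-Air lungs. Here the WT-O3 arrays were far below the other 3 groups, which lay close together. Eomes fell 3.55-fold with O3 in WT lungs (-1.83 ± 0.31, adjusted p = 0.0061). In Nfkb1-deficient lungs the difference with O3 was -0.61 ± 0.31 and was not called (adjusted p = 0.28). The genotype difference was 1.81 ± 0.31 after O3 (3.5-fold, adjusted p = 0.016) and 0.59 ± 0.31 in air (adjusted p = 0.51). A second Eomes probe set (1426001_at) lay at or below the lower limit on 4 arrays. Its difference after O3 was 2.25 ± 0.93 and was not called (adjusted p = 0.56). With O3 it differed by -0.94 ± 0.93 in WT lungs (adjusted p = 0.71). In Nfkb1-deficient lungs its difference with O3 was 1.01 ± 0.93 (adjusted p = 0.63), opposite in sign to that of the first.

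Il2rb encodes the β chain shared by the IL-2 and IL-15 receptors (1448759_at) and had the largest standard error of the 10. It measured 7.53, 6.78 and 7.88 in Nfkb1KO-O3 lungs against 3.96, 4.80 and 6.25 in WT-O3 lungs, and 6.22, 7.28 and 7.62 in Nfkb1KO-Air lungs against 5.97, 6.39 and 7.25 in WT-Air lungs. WT-O3 replicate 1 lay below the lower limit. The difference after O3, 2.39 ± 0.57 and at least 4.77-fold, was not called (adjusted p = 0.098), and in air the groups overlapped (0.50 ± 0.57, adjusted p = 0.78). The second probe set (1417546_at) gave the reverse ranking of the comparisons, 0.69 ± 0.60 after O3 and 1.63 ± 0.60 in air, with neither called (adjusted p = 0.87 after O3 and 0.43 in air). With O3 in WT lungs the probe sets had opposite signs, -1.53 ± 0.57 for the first and 0.44 ± 0.60 for the second (adjusted p = 0.15 and 0.81).

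Ccl5 encodes RANTES, a chemokine that NK cells and memory T cells release and that draws further leukocytes (1418126_at). Its signals were 10.57, 9.53 and 11.08 in Nfkb1KO-O3 lungs against 8.33, 8.04 and 8.29 in WT-O3 lungs, and 9.92, 10.79 and 10.96 in Nfkb1KO-Air lungs against 9.07, 9.09 and 9.50 in WT-Air lungs. The Nfkb1-deficient arrays all lay above the wild-type arrays but were widely spread. The genotype difference was 2.17 ± 0.34 after O3 (4.5-fold, adjusted p = 0.0095) and 1.33 ± 0.34 in air (adjusted p = 0.14), and that with O3 in WT lungs was -1.0 ± 0.34 (adjusted p = 0.12).

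**Figure D2:**
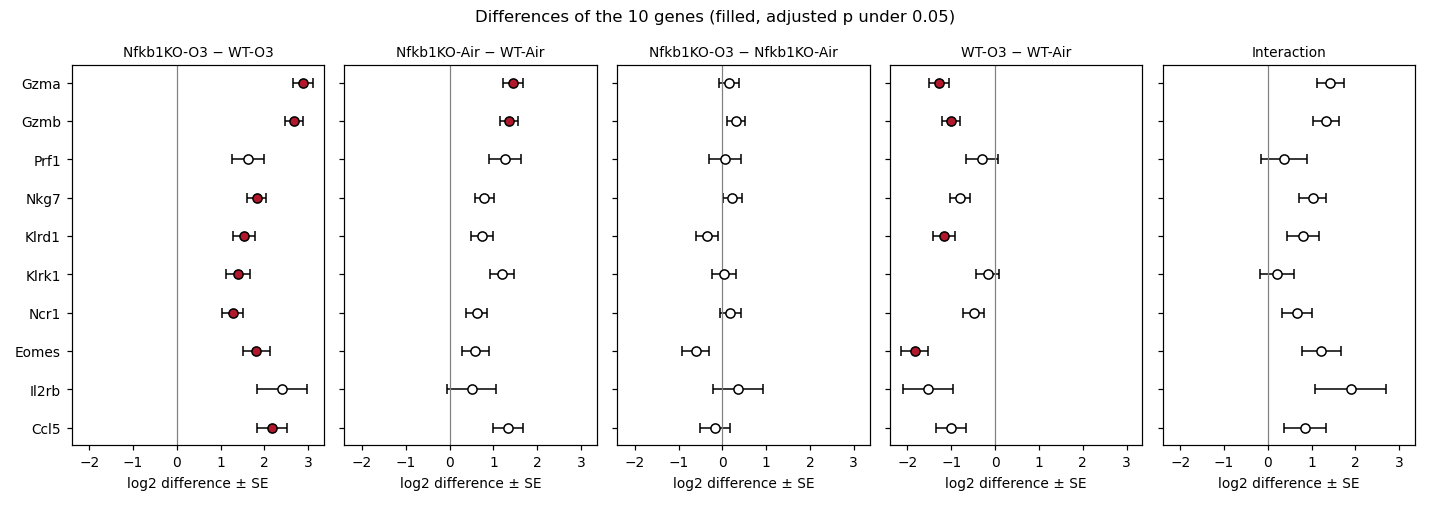
Log2 differences ± SE (x axes) of the 10 genes (rows) in the 5 comparisons (panels), with filled points for adjusted p under 0.05. Of the 10 genes, 8 are filled between genotypes after O3, 2 in air, 4 for O3 in WT lungs, all of these to the left of 0, and 0 in the other 2 panels.

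Set side by side on the probe sets that stood for the genes, every genotype difference was positive in air and larger after O3. In air 48.5% of all genes had a positive difference. In air 9 of 10 genes did not overlap between genotypes (6.63% of all genes did so in the higher direction). Il2rb was the exception on the probe sets that stood for the genes. On the second probe sets Il2rb did not overlap in air, while Prf1 and Eomes did. The range of the differences was 0.50 to 1.45 in air and 1.28 to 2.88 after O3. The second probe set of Il2rb gave 1.63 in air and 0.69 after O3, and that of Prf1 gave -0.07 and -0.02. Whether O3 changed the genotype difference is asked by the interaction. On the probe sets that stood for them it was positive for all 10 genes (median 0.93, all genes 0.01, where 51.5% were positive). The second probe set of Il2rb gave -0.94 ± 0.85. The interaction was called for 0 of 10 by limma, where 0.0342% of all genes were called higher. At an unadjusted p under 0.05 it was 6 of 10, Gzma, Gzmb, Nkg7, Klrd1, Eomes and Il2rb, against 3.26% of all genes. The largest in relation to their errors were Gzma at 1.43 ± 0.31 (adjusted p = 0.32) and Gzmb at 1.32 ± 0.30 (adjusted p = 0.43). A larger genotype difference after O3 than in air was therefore not called for any of the 10 genes.

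The number of calls after O3 depended on which array was left out. There were 5 calls without WT-O3 replicate 1, 3 without WT-O3 replicate 2 and 4 without Nfkb1KO-O3 replicate 1 or replicate 3. Calls higher over all genes fell too, from 97 to 70, 52, 44 and 58 in these fits, in the same order. Gzma, Gzmb and Nkg7 were called in each of the 25 alternatives tried. In air 0 calls were left without Nfkb1KO-Air replicate 2 or replicate 3 and 1 without WT-Air replicate 2 or replicate 3. Over all genes the calls higher in air fell from 45 to 21, 10, 35 and 27 in these fits. Without Nfkb1KO-Air replicate 1 and WT-Air replicate 3 together, the arrays that stood apart, Gzma (1.76, adjusted p = 0.026) and Gzmb (1.61, adjusted p = 0.016) were both called.

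With O3 in WT lungs the differences of all 10 genes were negative on the probe sets that stood for them (the second probe sets of Il2rb and Prf1 had 0.44 and 0.29), between -1.83 and -0.17 (median -1.0, all genes -0.03, where 53.5% were negative). In 8 of 10 the WT-O3 arrays lay below the WT-Air arrays, where this was so for 14.1% of all genes, and Klrk1 and Il2rb overlapped. In the Nfkb1-deficient lungs the differences with O3 ran from -0.61 for Eomes to 0.36 for Il2rb (median 0.11). The second probe sets of Eomes and Il2rb gave 1.01 and -0.50. On the probe sets that stood for the genes, the arrays of all 10 overlapped. That comparison called 3.35% of all genes higher and 2.83% lower, and of the 10 genes 0 were called by limma and 0 had an unadjusted p under 0.05 (10.9% of all genes had one and were higher, 10.6% lower). The intervals leave room for change, since the 95% interval of Gzma ran from -0.32 to 0.62 and that of Eomes from -1.28 to 0.07. The O3 comparison in WT lungs and the genotype comparison after O3 share the WT-O3 arrays, so the low WT-O3 values enter both. The 4 calls in WT lungs became 2 without WT-Air replicate 3, WT-O3 replicate 1 or WT-O3 replicate 2. Over all genes the calls lower in WT lungs fell from 394 to 161, 191 and 99 in these fits. When median centring replaced quantile normalisation, 1 call of the 10 genes was left in WT lungs and 0 between genotypes in air.

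Group means were put in order on the probe sets that stood for the genes. Nfkb1KO-O3 came first, followed by Nfkb1KO-Air, WT-Air and WT-O3, for 7 of the 10 genes. Klrd1 and Ccl5 had the 2 Nfkb1-deficient groups the other way round, and Eomes had WT-Air above Nfkb1KO-O3. Nfkb1KO-O3 and Nfkb1KO-Air, neighbours for all but Eomes, overlapped for every gene. Nfkb1KO-Air and WT-Air did not overlap for 9 genes (6.63% of all genes, in the higher direction), of which Gzma and Gzmb were called. WT-O3 and WT-Air did not overlap for 8 (14.1% of all genes, in the lower direction), of which Gzma, Gzmb, Klrd1 and Eomes were called. For Eomes, Nfkb1KO-O3 and WT-Air overlapped. WT-O3 was the lowest group for all 10. With the second probe sets of Prf1 and Il2rb, WT-O3 lay above WT-Air instead, with differences of 0.29 and 0.44. With that of Eomes, Nfkb1KO-O3 lay above Nfkb1KO-Air (by 1.01), and Nfkb1KO-Air above WT-Air (by 0.31).

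The 10 genes varied together across the arrays. Over 12 arrays the 45 pairs of genes had a median Pearson correlation of 0.86 (0.56 to 0.99), which includes the shared differences between groups. Once each group's mean was taken away the median was 0.16 (-0.51 to 0.93), and 28 of 45 pairs were positive. Within groups, Nkg7 (0.89), Gzma (0.85) and Ccl5 (0.78) went most closely with the mean of the other 9 genes, while Prf1, Klrk1, Ncr1 and Eomes had correlations between -0.14 and 0.03. The points of these correlations share arrays, and no test was made of them. Among single mice, Nfkb1KO-O3 replicate 2 was below its group mean in all 10 genes (on average by 0.36), and replicate 3 was above it in 9. In WT-O3, replicate 3 was above the mean in 8 genes.

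The genes around this set were described by lists, none of them tested as a set. Of 18 measured NK receptors beyond the set, 3 were called higher in Nfkb1KO-O3 lungs against WT-O3, with a list median of 0.39. Klrc1, the NKG2A chain that pairs with CD94, measured 7.79, 6.93 and 7.67 in Nfkb1KO-O3 lungs and 4.66, 4.16 and 5.34 in WT-O3 lungs, at least 6.37-fold higher (2.74 ± 0.43, adjusted p = 0.0091). The groups were well apart. Klrg1, an inhibitory receptor of mature NK and effector T cells, was 2.3-fold higher (1.20 ± 0.24, adjusted p = 0.038). Fcgr3, the Fc receptor CD16, was 1.84-fold higher (0.88 ± 0.12, adjusted p = 0.0042). The receptor gene Klre1 was not called (1.22 ± 0.31, adjusted p = 0.14).

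Among 11 receptor adaptors and signalling proteins, the adaptors Tyrobp (DAP12, 1.81-fold, adjusted p = 0.014) and Fcer1g (2.07-fold, adjusted p = 0.032) were called higher after O3, and all 11 differences were positive. Tyrobp, Fcer1g and Fcgr3 are also made by monocytes, macrophages and neutrophils. Of 13 transcription factors, Tbx21 and Nfil3 were called. Tbx21, the T-box factor that works beside Eomes, measured 7.81, 7.50 and 7.93 in Nfkb1KO-O3 lungs and 5.67, 6.24 and 6.44 in WT-O3 lungs (3.09-fold, 1.63 ± 0.28, adjusted p = 0.017). Nfil3, which is needed for NK cell development and is also expressed outside it, was 2.4-fold higher (adjusted p = 0.035). Nfil3 also rose with O3 in Nfkb1-deficient lungs, where none of the 10 genes was called, to 8.89, 9.05 and 9.15 in Nfkb1KO-O3 against 7.05, 6.72 and 6.97 in Nfkb1KO-Air (4.34-fold, adjusted p = 0.001).

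**Figure D3:**
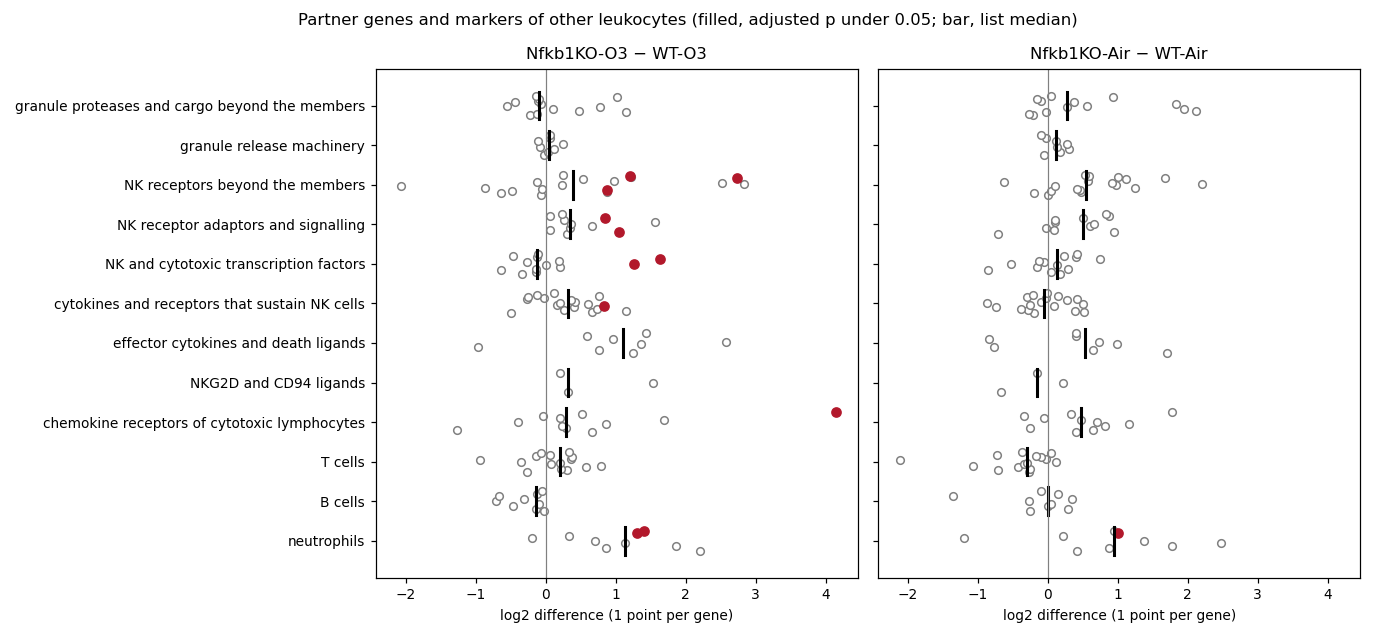
Log2 difference (x axes) of each gene in the lists of partner genes and of T cell, B cell and neutrophil markers (rows), after O3 on the left and in air on the right, with filled points for adjusted p under 0.05 and bars for list medians. NK receptors, adaptors and transcription factors hold 7 filled points after O3 and 0 in air, and granule release machinery lies close to 0 in both panels.

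The rest of the killing apparatus gave fewer calls. Of 13 further granule proteases and cargo proteins, 0 were called between genotypes in either exposure (median -0.10 after O3, 0.27 in air). Group means of Gzmc, Gzme and Gzmn lay below the lower limit in every group, so little can be read from their differences. Those of Srgn, Ctsc and Calr were 12.46 to 13.44, and which lung cells gave these signals was not tested. Serpinb9b, of the family of serpins that inhibit granzyme B, differed by 1.02 ± 0.28 after O3 (adjusted p = 0.17), and the granule protease Ctsw by 1.15 ± 0.44 (adjusted p = 0.39). The 8 genes of granule release, such as Stxbp2, Rab27a, Vamp8 and Syt7, all differed by between -0.11 and 0.25 after O3 and 0 were called. Their group means were 9.05 to 13.62, and the part of NK and T cells in these whole-lung signals was not tested. Granzyme M is a further protease of NK cell granules. Gzmm measured 6.80, 6.38 and 6.68 in WT-O3 lungs and 4.34, 5.46 and 3.07 in WT-Air lungs, at least 3.69-fold higher with O3 (2.33 ± 0.58, adjusted p = 0.038), while Gzma and Gzmb fell there. Its difference between genotypes after O3 was -0.07 ± 0.58 (adjusted p = 0.99).

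Of 18 cytokines, cytokine receptors and signalling genes that sustain NK cells, 1, Il18, was called after O3, 1.77-fold higher (0.83 ± 0.15, adjusted p = 0.021). Il15, whose product keeps NK cells alive, differed by 0.74 ± 0.37 (adjusted p = 0.58). Of 8 effector cytokines and death ligands 0 were called, with a median of 1.10. Ifng, the chief cytokine of NK cells, had the smallest p-value, with 5.61, 5.35 and 4.59 in Nfkb1KO-O3 lungs and 2.91, 3.29 and 1.61 in WT-O3 lungs (at least 1.76-fold, adjusted p = 0.072), and all 3 WT-O3 values lay below the lower limit. Among 11 chemokines, chemokine receptors and sphingosine phosphate receptors, S1pr5, which lets NK cells leave bone marrow and lymph nodes, was called. It measured 6.24, 5.57 and 7.03 in Nfkb1KO-O3 lungs against 1.56, 2.06 and 2.77 in WT-O3 lungs, which lie below the lower limit, at least 3.76-fold higher (adjusted p = 0.032). None of the 3 measured ligands of NKG2D, CD94 or NKT cells was called between genotypes, and in air 0 genes of any of these 9 lists were called.

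Markers of other cell types were read beside these values. Of 12 NK cell markers outside the set, 9 were measured, and these were Tbx21, S1pr5, Gzmm, Klre1, Klra7, Klra8, Xcl1, Il18rap and Serpinb9b. Klra7 and Klra8 belong to the near-identical Ly49 family, so their probes may read each other's transcripts. The summed signal of all 9 markers was 1070 to 1560 in Nfkb1KO-O3 lungs against 511 to 645 in WT-O3 lungs. In air it was 934 to 1210 in Nfkb1KO-Air lungs against 501 to 720 in WT-Air lungs. The genotypes did not overlap in either exposure, while the 2 wild-type groups did. After O3 the median difference was 1.43 and 2 of 9 were called (Tbx21 and S1pr5), and in air it was 0.93 with 0 called. For O3 in WT lungs the list did not go one way, with 3 positive and 6 negative differences.

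T cells express many of the 10 genes. Of 15 measured T cell markers 0 were called in any of the 5 comparisons, with medians of 0.21 between genotypes after O3 and -0.30 in air. Their summed signal was 1530 to 2390 in Nfkb1KO-O3 lungs against 1610 to 1880 in WT-O3 lungs, and 1940 to 2170 in Nfkb1KO-Air lungs against 2060 to 3170 in WT-Air lungs. The genotypes overlapped in both exposures. With O3 in WT lungs, however, all 15 T cell markers had negative differences (median -0.45), among them Cd3e, a subunit of the T cell receptor complex, at -1.59 ± 0.55 (adjusted p = 0.12), and the part of T cells in the falls of Gzma, Gzmb, Klrd1 and Eomes was not tested. Cd8a, which marks cytotoxic T cells, differed by 0.36 ± 0.30 between genotypes after O3 (adjusted p = 0.79).

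**Figure D4:**
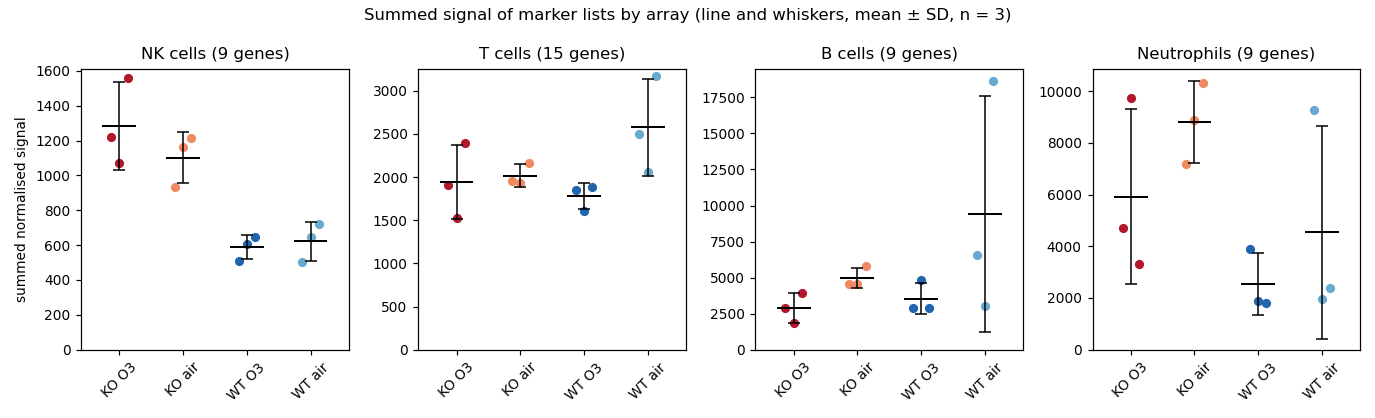
Summed normalised signal (linear scale, y axes from 0) of the measured NK cell markers outside the set and of T cell, B cell and neutrophil markers in the 4 groups (KO, Nfkb1-deficient), with 1 point per array and the mean ± SD (n = 3). The NK sum is 1070 to 1560 in Nfkb1KO-O3 lungs and 511 to 645 in WT-O3 lungs without overlap, and the T cell sums overlap.

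Among the remaining leukocyte lists, 0 of 9 B cell markers were called in any comparison. All 9 had negative differences between genotypes after O3 (median -0.13). Of 9 neutrophil markers 8 had positive differences between genotypes in each exposure, with medians of 1.13 after O3 and 0.94 in air. S100a8 was called between genotypes in air (2-fold higher, adjusted p = 0.02), and S100a8 (2.46-fold, adjusted p = 0.0015) and S100a9 (2.65-fold, adjusted p = 0.011) after O3. Neutrophil sums were 3300 to 9740 in Nfkb1KO-O3 lungs against 1820 to 3910 in WT-O3 lungs, and 7170 to 10300 in Nfkb1KO-Air lungs against 1970 to 9280 in WT-Air lungs. The sums, which hold the widely varying Ltf, overlapped in both exposures, and the part of neutrophils in the genotype differences was not tested. Of 11 monocyte and macrophage markers 0 were called between genotypes after O3, where 10 had positive differences (median 0.17), and Marco was called lower in air. Their sums were 46900 to 49700 in Nfkb1KO-O3 lungs against 44000 to 47000 in WT-O3 lungs, which overlapped. Dendritic cell markers summed to 1270 to 1970 in Nfkb1KO-O3 lungs against 2500 to 3150 in WT-O3 lungs, without overlap. This was in the opposite direction to the NK sum, and 7 of 8 markers had negative differences (median -0.67) with 0 called. The sum holds the chemokines Ccl17 (mean log2 signal 9.12 in Nfkb1KO-O3 and 10.35 in WT-O3 lungs) and Ccl22 (6.10 and 7.79). With O3 in WT lungs the dendritic cell chemokines Ccl17 (2.63 ± 0.29, adjusted p = 0.00051) and Ccl22 (1.73 ± 0.36, adjusted p = 0.018) rose. The part of dendritic cells in the results was not tested. Of 6 innate lymphoid and gamma-delta T cell markers 0 were called in any comparison. Muscle genes, a sign of other tissue in the sample, summed to 640 to 9420 in Nfkb1KO-O3, 1480 to 2230 in Nfkb1KO-Air, 625 to 1160 in WT-O3 and 1400 to 38600 in WT-Air lungs. They were high on single arrays, and 0 of 10 were called in any comparison.

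Of 8782 genes above the median signal, those whose pattern over the 12 arrays was most like the mean of the 10 standardised profiles were AW112010 (Pearson r = 0.961), Gbp3 (0.952), Plac8 (0.940), Parp9 (0.936), Tyrobp (0.934), Bst2 (0.931), Trim30a (0.929), Dtx3l (0.928), Ms4a6b (0.924) and Ms4a4c (0.924). These were picked for their likeness and their correlations are a description, as most of the variation is between the 4 groups. With the group means taken away, r was 0.76 for Tyrobp and Trim30a, 0.65 for Plac8, 0.64 for AW112010 and Bst2, and 0.31 for Gbp3, 0.09 for Dtx3l and -0.00 for Parp9. AW112010 was 1.10 higher on the log2 scale in Nfkb1KO-O3 lungs relative to WT-O3 (adjusted p = 0.0024), and Gbp3, a guanylate-binding protein induced by interferons, was 2.92 higher (adjusted p = 1.9e-05).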

How the data were processed

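Total RNA (100 ng) from left lung homogenates was hybridised to 12 Affymetrix arrays (Mouse Genome 430 2.0), 1 per mouse. The deposited values were signal intensities on a linear scale, which per the labels the authors had computed with MAS5 in Affymetrix Expression Console (versions not given in the sources used here), bringing each array to a trimmed mean (2% cut at each end) of 500. They were not log transformed. No detection calls were used. Precision is limited by the number of arrays.

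After 64 control probe sets had been set aside, a floor of 1 was applied before the log2 transformation, and arrays were then quantile normalised. Probe sets above the 20th percentile of at least 1 array were kept (42559 of 45101). Symbols came from the platform annotation: 34958 probe sets had 1 symbol, 932 had several, 9211 had none, and 34754 of the first were found in RefSeq. The probe set with the highest mean stood for a gene. limma 3.58.1 in R 4.3.3 was fitted to the 12 arrays with 1 mean per group and trended eBayes (12.6 degrees of freedom per gene). Benjamini-Hochberg adjustment was over 17569 genes, and the fit was tested on simulated data. Nothing was tested by permutation, as 3 arrays against 3 cannot give an exact two-sided p under 0.1. The mice are separate animals. Figures were drawn in Python 3.11.15 with matplotlib 3.10.9.

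Named genes were the 10 members, up to 4 genes per list with the smallest p, called ones first, and the 10 most alike in pattern. The members and lists were chosen with earlier results of these data known. The alternatives were another normalisation, filters, floors, moderation, probe set rules, sample sets, tests and each array left out.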

Additional observations from a re-analysis of the deposited data

How the results depend on the processing

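Of the 14 calls of the 10 genes, each was refitted under 25 alternatives, 350 fits in all. Of these, 293 kept the call, 57 lost it and 0 changed sign. Gzma, Gzmb and Nkg7 after O3 kept the call in all 25. The others after O3 were called in 22 for Ccl5, 20 for Klrd1, 19 for Eomes, 17 for Klrk1 and 16 for Ncr1. In air Gzma was called in 21 and Gzmb in 18. For O3 in WT lungs they were called in 24 for Gzma, 23 for Eomes, 20 for Gzmb and 18 for Klrd1.

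The number of genes called in air was 2. Median-centred arrays gave 0, as did a fit whose prior spread had no trend, and the fit to the comparison's own groups gave 1. The methods' t-test gave 0 after Benjamini-Hochberg and 8 at an unadjusted p under 0.05, for which the share of all genes was not taken. By limma 8 of 10 were higher at that unadjusted threshold, against 5.56% of all genes. Leaving out 1 array gave 0 to 3. After O3 there were 8 calls, 6 to 10 under the other settings and 3 to 8 with 1 array left out. The calls over all genes moved too, to 230 higher after O3 with array weights, against 97 without them. For O3 in WT lungs there were 4 calls of the 10 genes, with 1 when arrays were centred on their medians and 2 to 5 with 1 array left out. For O3 in Nfkb1-deficient lungs the count was 0 throughout. Centring moved the median of all genes to -0.20 between genotypes in air (-0.01 with quantile normalisation) and to 0.25 for O3 in Nfkb1-deficient lungs (-0.01). It also moved the calls over all genes for O3 in WT lungs to 76 higher and 11 lower (555 and 394 with quantile normalisation) and for O3 in Nfkb1-deficient lungs to 289 and 19 (589 and 497). The causes were not tested.

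Replicate numbers did not pair the samples: same-numbered arrays of different groups had correlations of -0.17 to 0.11 after group means were removed, and 0 of 12 arrays correlated best with one of their own number. With the replicate block the interaction was called for 1 gene, Gzma (1.43, adjusted p = 0.043), against 0 without it. After O3 the block lost Ncr1 (adjusted p = 0.062) and gained Il2rb (adjusted p = 0.024), and for O3 in WT lungs it gained Nkg7 (adjusted p = 0.045).

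All other changes of sign were in differences that were not called. Prf1 changed sign where its other probe set had the higher mean and stood for the gene. Its differences were then -0.04 in air, -0.02 after O3 and 0.29 for O3 in WT lungs with arrays centred, and -0.15, -0.02 and 0.15 without the 2 arrays that stood apart. With 1 array left out they ran from -0.12 to 1.27 in air, -0.11 to 1.68 after O3, -0.36 to 0.30 for O3 in WT lungs and -0.04 to 0.43 in the interaction. For O3 in WT lungs Klrk1 ran from -0.27 to 0.02 in the same way. For O3 in Nfkb1-deficient lungs Gzma was -0.03 to 0.37 and Klrk1 -0.15 to 0.24 with 1 array left out, and Eomes was 0.20 with the mean of its probe sets and 1.01 with the most variable one. In the same comparison Il2rb was -0.07 with the mean of its probe sets, -0.06 without the 2 arrays that stood apart and -0.50 to 0.66 with 1 array left out, and Ccl5 was 0.24 with arrays centred and -0.50 to 0.27 with 1 array left out. The interaction of Il2rb was -0.09 to 2.51 with 1 array left out, the lowest being that without WT-Air replicate 3, where its second probe set stood for the gene.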
